A study of Homo sapiens with 4 samples.

Results

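The early response genes EGR1, EGR2, EGR3, KLF2, KLF4, KLF6, NR4A1, NR4A2, IER2 and IER3 were followed in human endometrial cancer cells given a mimic of the tRNA fragment tRF-20-S998LO9D. All 10 were chosen by symbol, with earlier results of these data known, and all 10 were found among the 22494 features of the count table. The related gene lists below were chosen in the same way. Shares over all features are therefore given beside these genes as description only. RNA was sequenced in 4 libraries: RL-95-2 cells transfected with the mimic, RL-95-2 cells transfected with a negative control of mimics, HEC-1-A cells transfected with the mimic and HEC-1-A cells transfected with the negative control. Each group was 1 library, so a difference within a line has no replicate check. RL-95-2 and HEC-1-A are established lines, each from a single endometrial tumour, and every library comes from transfected cells, with no untransfected group analysed here. The labels do not name separate cultures. P-values over the 4 libraries measure only the spread left after line and transfection, which is how differently the mimic ratio ran in the lines. That is not a spread between replicates of a group, and its estimate also draws on other features. The question was how the levels of these genes differ between the lines, and between mimic and control libraries within a line.

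Early response genes are transcribed within minutes of a growth or stress signal, from proteins already present in the cell. A serum, growth factor or calcium signal reaches them through MAP kinases, the serum response factor SRF with its ETS partners such as ELK1, and CREB. Their mRNAs are short-lived, in part through AU-rich elements in the 3′ untranslated region, so that levels fall soon after a signal ends. EGR, KLF and NR4A proteins are DNA-binding transcription factors, whereas IER2 and IER3 lack a zinc finger and act as short-lived nuclear or stress-response proteins.

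The promoter sequences of EGR1 and EGR2 are shown because they hold the SRF-binding CArG box. RefSeq windows running 250 bases before to 50 bases after a transcript start (GRCh38.p14) matched 7 of the 10 genes. The EGR1 window lies at chr5:138465229-138465528 on the plus strand, and the EGR2 window shown, the third of 3, at chr10:62816317-62816616 on the minus strand. Capitals mark the CArG boxes, which are the capital runs of 10 bases, and the core of the cyclic AMP response element bound by CREB (TGACG on either strand), which are the runs of 5 bases.

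EGR1: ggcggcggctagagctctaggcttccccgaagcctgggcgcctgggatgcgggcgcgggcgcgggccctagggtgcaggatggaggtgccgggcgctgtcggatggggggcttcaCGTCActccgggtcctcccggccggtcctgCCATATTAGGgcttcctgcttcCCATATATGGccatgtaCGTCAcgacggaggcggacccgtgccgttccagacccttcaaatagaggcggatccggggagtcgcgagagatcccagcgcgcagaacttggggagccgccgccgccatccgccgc

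EGR2: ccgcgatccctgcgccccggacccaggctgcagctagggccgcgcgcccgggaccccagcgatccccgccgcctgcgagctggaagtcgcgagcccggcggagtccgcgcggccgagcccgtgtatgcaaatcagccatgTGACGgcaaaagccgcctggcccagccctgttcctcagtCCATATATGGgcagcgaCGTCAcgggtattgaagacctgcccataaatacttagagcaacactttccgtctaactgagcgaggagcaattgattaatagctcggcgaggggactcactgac

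EGR1 had 2 CArG boxes, at bases -105 to -96 and -83 to -74 from the start, flanked by 2 CREB core sites. EGR2 had 1 CArG box at -71 to -62, also between 2 core sites. Among the 7 genes with a window, 2 held a CArG box, against 1.70% of 14510 genes of the count table with a window. The CREB core site stood in 4 of the 7 (EGR1, EGR2, IER2 and KLF4), against 35.0% of genes. GCGNGGGCG, the site of EGR proteins, stood in 5 of the 7 (EGR1, EGR2, KLF2, KLF4 and KLF6), against 16.2%, and GGGCGG, the GC box bound by SP and KLF proteins, in 6 of the 7, against 65.5%. The EGR site and the GC box can overlap, as they do in KLF2, KLF4 and KLF6. None of the 7 held the letters of the full element TGACGTCA (3.03% of genes), the ETS site CCGGAAGT (7.14%), the AP-1 site TGANTCA (8.12%) or the ATF4 and C/EBP site TGATGNAA (3.64%). Apart from the CREB core site, shorter or variant forms of these sites, ETS sites included, were not counted, so their absence is not shown. All motifs were searched on both strands, and a match describes letters only.

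**Figure D1:**
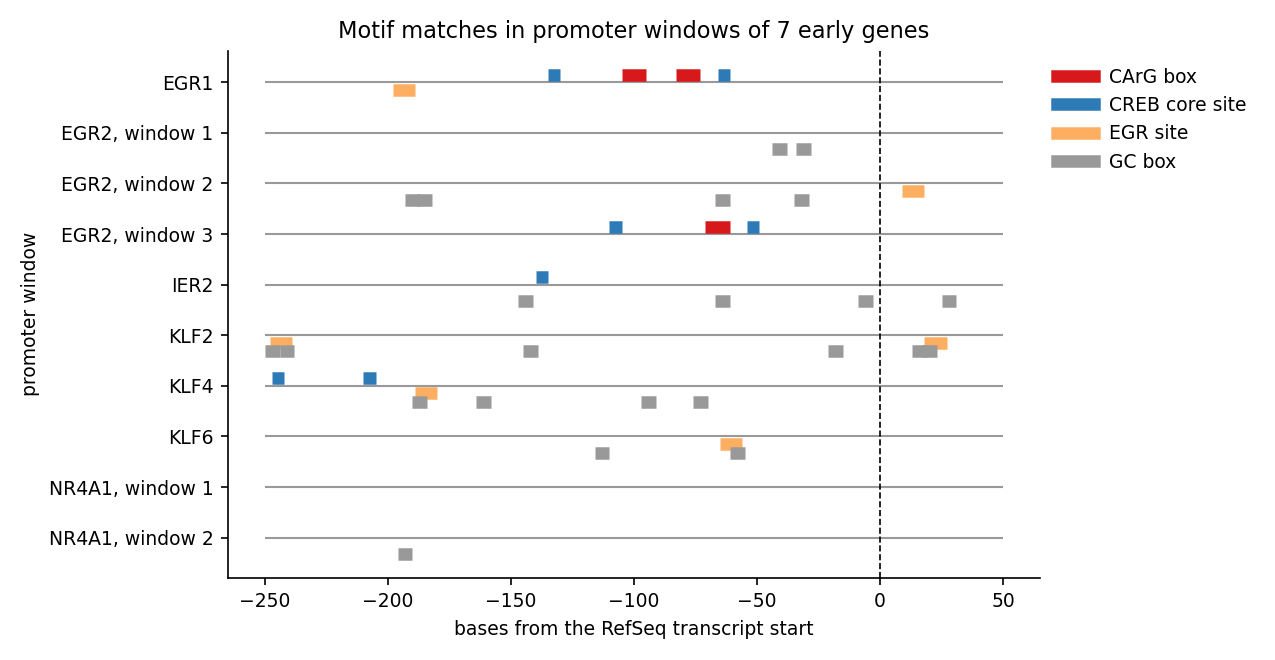
Motif matches in the RefSeq promoter windows of 7 early genes, as bases from the transcript start (dashed line), 1 row per window. CArG boxes (red) appear in EGR1 and in the third EGR2 window, each between CREB core sites (blue), and GC boxes (grey) appear in 6 genes and EGR sites (orange) in 5.

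Stretches of the 3′ untranslated region with the densest AU-rich pentamer ATTTA are shown because AU-rich elements of short-lived mRNAs often hold it. The pentamer alone does not mark an mRNA of rapid turnover. Capitals mark the pentamers in 30 bases of GENCODE release 29 transcripts (GRCh38).

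IER3: ATTTAtatgtATTTAtgtacgtcctcctag

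NR4A1: ATTTAtatttgtgtattttcctggATTTAt

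EGR2: ATTTAtgatctcagaggttaacttATTTAa

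KLF6: ATTTAcaaatataacacaacaATTTAactt

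The IER3 stretch begins 267 bases after the stop codon, that of NR4A1 466, that of EGR2 767 and that of KLF6 721 bases after it. ATTTA occurred at least once in 9 of the 10 genes and at least 2 times in 8 of the 10, against 64.8% and 48.2% of 18218 features with a matched transcript. Its density was highest in IER3, at 8.14 per kb, and the median over the 10 genes was 1.96 per kb, against 1.44 over all matched features. IER2 had none in the transcript used. The counts of genes with the pentamer were not adjusted for length. The median 3′ untranslated region was 1130.5 bases in these genes, against 888 over all matched features. The genes also had few exons, with a median of 2.5 against 8, and a median transcript GC content of 55.2% against 49.6%.

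Total counts were 46220053 in the RL-95-2 mimic, 39999621 in the RL-95-2 control, 45970431 in the HEC-1-A mimic and 33575882 in the HEC-1-A control library. The epithelial markers EPCAM, CDH1, KRT8, KRT18, KRT19, KRT7 and PAX8, as a sum of TMM-scaled CPM (counts relative to library size), stood at 4293 and 3042 CPM in the RL-95-2 mimic and control libraries and at 2024 and 2374 CPM in those of HEC-1-A. The RL-95-2 sum was carried by keratins: KRT8 had 1444 CPM with the mimic, against 388 CPM with the control, and KRT19 511 CPM with the mimic, against 277 CPM with the control. EPCAM, KRT7 and PAX8 had log2 ratios of -0.21, -0.32 and -0.42 in RL-95-2, and the median of the 7 markers was 0.02 there and -0.27 in HEC-1-A. Of the marker lists for other cell types, 0 of 5 blood genes reached a mean of 1 CPM in either line. COL1A2 and DCN, named from the fibroblast list after their values were seen, had 0 counts in all libraries, while 2 of 6 fibroblast genes reached 1 CPM in each line. COL1A1 had 56.6 CPM with the mimic, against 78.2 CPM with the control in RL-95-2 (log2 ratio -0.47), and 6.39 CPM with the mimic, against 2.96 CPM with the control in HEC-1-A (log2 ratio 1.10). The others that reached it were COL3A1 in RL-95-2 and PDGFRB in HEC-1-A. Of 5 endothelial genes, CDH5 alone reached it, in RL-95-2, at 24.5 CPM with the mimic and 14.0 CPM with the control. In the RL-95-2 libraries PECAM1 had 0 counts, while VWF had 9 with the mimic and 6 with the control. The share of counts from mitochondrial mRNAs was 3.29% in the RL-95-2 mimic and 2.84% in the RL-95-2 control library, and 4.24% and 4.33% in the HEC-1-A mimic and control libraries. The part of any of these in the results was not tested.

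Across the lines, EGR1, EGR2, KLF6 and NR4A1 were lower in RL-95-2 than in HEC-1-A. Each line gave 2 libraries here, 1 mimic and 1 control. EGR1, a zinc finger factor induced by nearly every mitogen, had 11.3 and 45.8 CPM in RL-95-2 (mimic, control), against 306 and 332 CPM in HEC-1-A. The groups did not overlap, and the RL-95-2 mimic library was the lowest of the 4. The edgeR log2 fold change of RL-95-2 over HEC-1-A was -3.81 for EGR1 (SE 0.51, n = 2 per line, adjusted p = 0.00214). KLF6, a Krüppel-like factor first described as a tumour suppressor candidate, had 38.8 and 125 CPM in RL-95-2, against 398 and 303 CPM in HEC-1-A, with an edgeR log2 fold change of -2.32 (SE 0.52, n = 2, adjusted p = 0.0159). NR4A1, an orphan nuclear receptor, had 1.5 and 3.56 CPM in RL-95-2, against 17.5 and 12.1 CPM in HEC-1-A, with an edgeR log2 fold change of -2.64 (SE 0.53, n = 2, adjusted p = 0.0105). EGR2, best known for its role in myelinating Schwann cells, had 2 and 9 counts in RL-95-2, against 121 and 54 counts in HEC-1-A, with an edgeR log2 fold change of -4.11 (SE 0.94, n = 2, adjusted p = 0.0175). With at least 1 CPM required in all 4 libraries, EGR2 was no longer tested and the other three calls held. The size of each difference depended on the transfection compared: between mimic libraries alone and control libraries alone, the log2 ratio of RL-95-2 over HEC-1-A was -4.76 and -2.86 for EGR1, and -3.36 and -1.28 for KLF6. For NR4A1 it was -3.50 between mimic libraries and -1.75 between control libraries, and for EGR2 -4.96 between mimic libraries and -2.59 between control libraries.

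Of 9 genes tested, 4 passed lower and 0 higher in RL-95-2, against 16.7% of 15957 features lower and 18.3% higher. The other genes did not pass. IER3 had 71.3 and 157 CPM in RL-95-2, against 179 and 164 CPM in HEC-1-A (edgeR adjusted p = 0.169), and IER2 had 133 and 243 CPM in RL-95-2, against 261 and 281 CPM in HEC-1-A (edgeR adjusted p = 0.159). KLF4, a pluripotency and epithelial differentiation factor, had 73.3 and 225 CPM in RL-95-2, on either side of the 94.0 and 97.2 CPM of HEC-1-A (edgeR adjusted p = 0.443). For KLF4 the direction turned with the libraries compared: the log2 ratio of RL-95-2 over HEC-1-A was -0.36 between mimic libraries and 1.21 between control libraries. NR4A2 likewise gave -1.15 between mimic libraries and 0.46 between control libraries (edgeR adjusted p = 0.657). KLF2 had 2.03 and 4.28 CPM in RL-95-2, against 1.72 and 1.12 CPM in HEC-1-A, with no overlap but an edgeR log2 fold change of 1.07 (SE 0.61, adjusted p = 0.22).

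Per length, on the authors' FPKM scale, IER3 stood highest of the 10 genes in both lines, at 50.1 and 109 FPKM in the RL-95-2 mimic and control libraries and 123 and 114 FPKM in those of HEC-1-A. EGR1 held the second place in HEC-1-A, at 84.3 and 93.3 FPKM, and the fifth in RL-95-2, at 3.40 and 12.6 FPKM. In HEC-1-A the order ran IER3, EGR1, IER2, KLF6, KLF4, NR4A1, NR4A2, EGR2, KLF2 and EGR3. There EGR1 and IER2 could not be ordered beyond the spread of their 2 libraries, nor could EGR2 and KLF2. In RL-95-2 it ran IER3, IER2, KLF4, KLF6, EGR1, KLF2, NR4A2, NR4A1, EGR2 and EGR3. The spread there was wider, and the libraries of IER3 overlapped with those of IER2, IER2 with KLF4, KLF6 with EGR1, KLF2 with NR4A2 and NR4A2 with NR4A1. Those of KLF4 lay above those of KLF6. The lowest members were EGR2, at 0.013 and 0.064 FPKM in the RL-95-2 mimic and control libraries, and EGR3, a relative of EGR1 active in neurons and T cells.

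**Figure D2:**
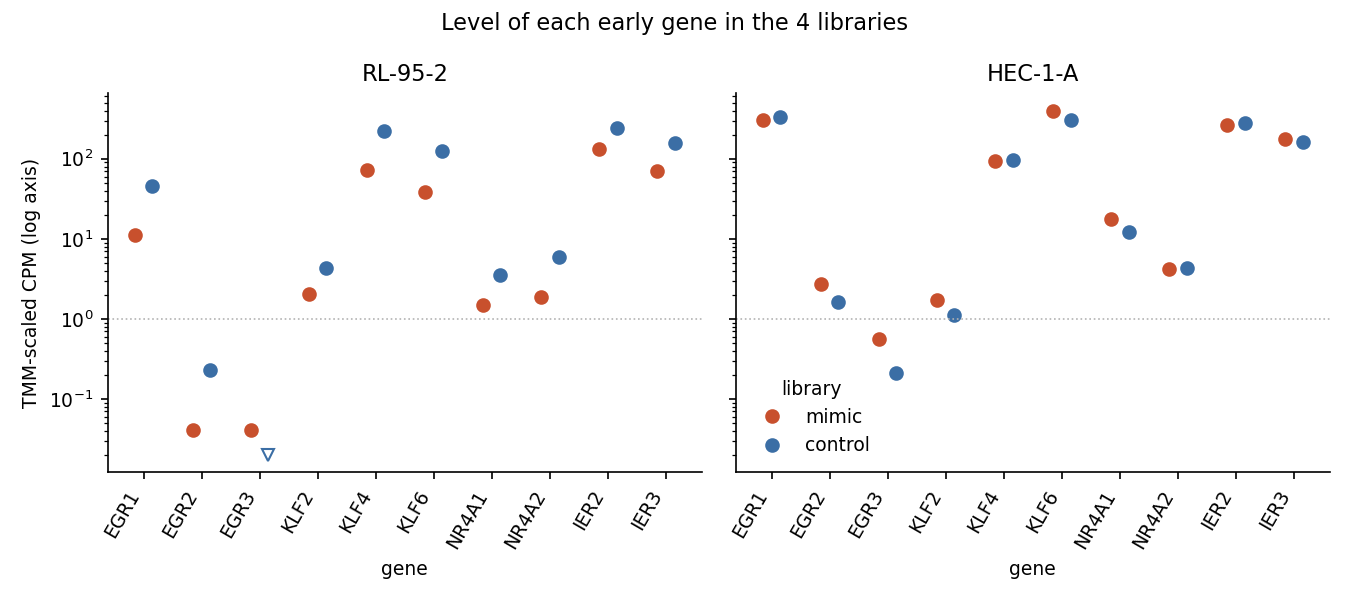
TMM-scaled CPM (log axis) of each gene in the mimic (red) and control (blue) libraries of RL-95-2 and HEC-1-A, 1 point per library. The open triangle marks 0 counts, and the dotted line marks 1 CPM. In RL-95-2 the mimic point lies below the control point for every gene over the dotted line, whereas in HEC-1-A no gene over it differs by as much as 2-fold.

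Between mimic and control libraries, all 8 genes that reached a mean of 1 CPM in RL-95-2 were lower with the mimic there, while in HEC-1-A 5 of 9 were higher and 4 lower. Of the 8 genes in RL-95-2, 7 were at least 2-fold lower and 0 at least 2-fold higher, where 6.52% and 4.71% of 13151 features were. Because the genes were chosen with earlier results of these data known, this comparison is a description only. EGR2 and EGR3 were under a mean of 1 CPM in RL-95-2. With log2 ratios of FPKM + 1, which understate low genes, 4 of the 8 were at least 2-fold lower. With FPKM + 0.1, 5 of the 8 were, and with scaling by library total 6 were. At a mean of 5 CPM, 5 genes remained and 4 of these were. In HEC-1-A, 9 of the 10 reached a mean of 1 CPM, with 0 at least 2-fold lower and 0 higher, near the 0.239% and 0.871% of 12981 features that were. The summed level of the 10 genes was 333 CPM in the RL-95-2 mimic library, against 810 CPM in its control, and 1265 CPM in the HEC-1-A mimic library, against 1197 CPM in its control. The median log2 ratio of the genes that reached 1 CPM was -1.42 in RL-95-2 and 0.12 in HEC-1-A, beside medians of 0.00 and 0.02 over all features. In RL-95-2, scaling by library total moved the median of all features to 0.13 and the share higher among all features past 2-fold to 55.8% (41.9% with TMM scaling), while the median of the early genes was -1.29. Fewer cells expressing a gene and less RNA per cell cannot be told apart in such bulk samples. All intervals below are exact 95% intervals that cover counting error only.

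**Figure D3:**
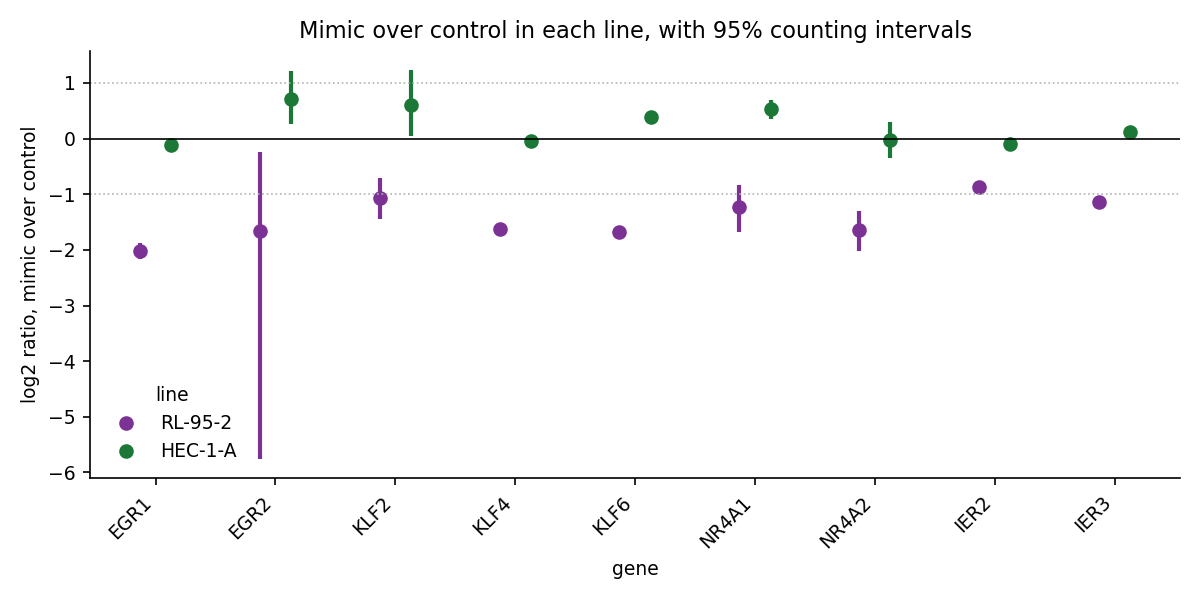
Log2 ratio of mimic over control for 9 early genes in RL-95-2 (purple) and HEC-1-A (green), with exact 95% counting intervals (bars). Dotted lines mark 2-fold. The RL-95-2 points run from -2.02 for EGR1 to -0.87 for IER2, and the HEC-1-A points from -0.12 to 0.71.

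Of the EGR factors, which bind GC-rich sites through a shared zinc finger domain, EGR1 had the lowest ratio of the genes in RL-95-2. EGR1 (chromosome 5, 138465490 to 138469315, plus strand) had 555 counts or 11.3 CPM in the RL-95-2 mimic library, against 1786 counts or 45.8 CPM in its control. That is a 4.05-fold lower level, with a log2 ratio of -2.02 (interval -2.16 to -1.88). In HEC-1-A its level was 306 CPM with the mimic, against 332 CPM with the control (log2 ratio -0.12, interval -0.15 to -0.08). The ratio was thus below 0 in both lines. EGR2 (chromosome 10, 62811996 to 62919900, minus strand) had 2 counts in the RL-95-2 mimic library, against 9 in its control, a log2 ratio of -1.65 (interval -5.76 to -0.23), with the mean below 1 CPM. HEC-1-A cells had it at 2.70 CPM with the mimic, against 1.63 CPM with the control (log2 ratio 0.71, interval 0.26 to 1.22). EGR3 had 25 counts in the HEC-1-A mimic library, against 7 in its control (log2 ratio 1.23, interval 0.15 to 2.86), likewise with the mean below 1 CPM. Its 2 counts in the RL-95-2 mimic library and 0 in the RL-95-2 control, where 0 counts allow up to 3, give no fold.

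The KLF factors, which bind GC and CACCC boxes, were at least 2-fold lower in RL-95-2 for all 3 genes. KLF6 (chromosome 10, 3775996 to 3785281, minus strand) had 38.8 CPM in the RL-95-2 mimic library, against 125 CPM in its control, a 3.21-fold lower level (log2 ratio -1.68, interval -1.76 to -1.61). In HEC-1-A it had 398 CPM with the mimic, against 303 CPM with the control (log2 ratio 0.39, interval 0.36 to 0.43). KLF6 was therefore lower with the mimic in one line and higher in the other, with both intervals away from 0. KLF4 (chromosome 9, 107484852 to 107490482, minus strand) had 3613 counts or 73.3 CPM in the RL-95-2 mimic library, against 8791 counts or 225 CPM in its control (log2 ratio -1.62, interval -1.68 to -1.56). Its HEC-1-A libraries held 94.0 CPM with the mimic and 97.2 CPM with the control, and the interval of the log2 ratio, -0.11 to 0.02, spanned 0. KLF2, a factor induced by shear stress through MAPK7 and MEF2 proteins in endothelial cells, lies on chromosome 19, 16324817 to 16327874, plus strand. It had 2.03 CPM in the RL-95-2 mimic library, against 4.28 CPM in its control (log2 ratio -1.06, interval -1.45 to -0.71), and 1.72 CPM in the HEC-1-A mimic library, against 1.12 CPM in its control (log2 ratio 0.60, interval 0.04 to 1.23). The RL-95-2 ratio of KLF2 was -0.93 with scaling by library total, which takes it under 2-fold.

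NR4A1 and NR4A2 encode nuclear receptors that act without a known physiological ligand and are controlled mainly by their own transcription. NR4A2 (chromosome 2, 156324432 to 156342348, minus strand) had 1.87 CPM in the RL-95-2 mimic library, against 5.89 CPM in its control (log2 ratio -1.63, interval -2.02 to -1.30). In HEC-1-A it had 4.20 CPM with the mimic, against 4.29 CPM with the control (log2 ratio -0.03, interval -0.35 to 0.30). NR4A1 (chromosome 12, 52022832 to 52059507, plus strand) had 74 counts or 1.5 CPM in the RL-95-2 mimic library, against 139 counts or 3.56 CPM in its control (log2 ratio -1.22, interval -1.67 to -0.83). In HEC-1-A the order was the other way, with 782 counts or 17.5 CPM with the mimic, against 402 counts or 12.1 CPM with the control (log2 ratio 0.52, interval 0.35 to 0.70).

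IER3, a stress-response protein that modulates cell death, and IER2, a nuclear protein of growth factor responses, had the highest mean FPKM of the 10 genes in RL-95-2. IER3 (chromosome 6, 30743199 to 30744554, minus strand) had 71.3 CPM in the RL-95-2 mimic library, against 157 CPM in its control (log2 ratio -1.14, interval -1.20 to -1.08). In HEC-1-A it had 179 CPM with the mimic, against 164 CPM with the control (log2 ratio 0.12, interval 0.07 to 0.17). IER2 (chromosome 19, 13150415 to 13154908, plus strand) had 6570 counts or 133 CPM in the RL-95-2 mimic library, against 9476 counts or 243 CPM in its control, 1.82-fold lower (log2 ratio -0.87, interval -0.91 to -0.82). This was the ratio nearest to 0 of the 8 genes, and its interval did not overlap those of EGR1, KLF4, KLF6, NR4A2 and IER3. In HEC-1-A, IER2 had 261 CPM with the mimic, against 281 CPM with the control (log2 ratio -0.11, interval -0.14 to -0.07). IER2, IER3, NR4A1 and EGR3 each overlap 1 noncoding gene on the other strand, and since the strand setting of the counts is not given, reads of such pairs cannot be told apart.

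Over both lines, 0 of the 9 genes tested passed the edgeR test of mimic against control, nor did any other feature (0% of 15957 in either direction). In simulated counts this test recovered 1.5% of 2-fold and 85.1% of 4-fold changes. Those changes were the same in both lines, and every simulated feature was given the same spread. A lack of calls therefore says little about changes near 2-fold. It also says little about larger changes in only 1 line, which were not simulated. At an unadjusted p under 0.05 there were 167 features, of which 0 were early genes, while DESeq2 called 2 features and limma-voom 0, none of them early genes. Both lines had EGR1 below 0, and its edgeR log2 fold change was -1.06 (SE 0.47, adjusted p = 0.9999, n = 2 libraries for each transfection). IER2, with intervals below 0 in both lines as for EGR1, had -0.49 (SE 0.29, edgeR adjusted p = 0.9999). KLF4 and NR4A2 were below 0 in RL-95-2, with intervals that spanned 0 in HEC-1-A. KLF4 had -0.83 (SE 0.40, edgeR adjusted p = 0.9999) and NR4A2 had -0.84 (SE 0.55, edgeR adjusted p = 0.9999). KLF6, below 0 in RL-95-2 alone, had -0.64 (SE 0.50, edgeR adjusted p = 0.9999). Intervals lay above 0 in HEC-1-A and below 0 in RL-95-2 for 5 of the 10 genes, against 8.48% of all features, and for 4 of the 8 genes that reached 1 CPM in both lines, against 15% of 11914 such features. The fit had 1 residual degree of freedom, and the response of a gene cannot be tested for a difference between the lines with 1 library per group.

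Relatives of these genes were less uniform. In RL-95-2, 16 of 21 relatives reached 1 CPM, 12 had a ratio below 0, 4 were at least 2-fold lower and 0 higher (median log2 ratio -0.25). Of all features there, 6.52% were at least 2-fold lower and 4.71% higher. KLF9, a factor induced by glucocorticoids, had 1.30 CPM with the mimic, against 12.0 CPM with the control in RL-95-2 (log2 ratio -3.16), and 12.4 CPM with the mimic, against 8.45 CPM with the control in HEC-1-A (log2 ratio 0.55). KLF15 had log2 ratios of -1.84 in RL-95-2 and 0.48 in HEC-1-A, and KLF3, a repressor, had -1.36 in RL-95-2, at 186 CPM with the mimic and 479 CPM with the control. These 3 relatives had the lowest ratios in RL-95-2. The highest ratios in RL-95-2 were those of NR4A3 (0.41), KLF16 (0.12) and KLF12 (0.10). In HEC-1-A, 7 of 14 relatives were above 0 and 0 were past 2-fold, with the lowest ratios in KLF7 (-0.51), IER5L (-0.38) and NAB1, a corepressor of EGR proteins (-0.28).

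The kinases and factors upstream of these genes had a median ratio nearer to 0 than the early genes in RL-95-2. Of 24 of 25 upstream genes that reached 1 CPM in RL-95-2, 2 were at least 2-fold lower and 1 higher (median log2 ratio -0.25). Those counts are near the shares of all features there, 6.52% lower and 4.71% higher. In HEC-1-A 0 of 24 were past 2-fold (median 0.01), where 0.239% of all features were lower and 0.871% higher. SRF itself had a log2 ratio of -0.30 in RL-95-2 and 0.09 in HEC-1-A, and ELK1 had -0.30 and 0.01. Both genes were chosen for display after their values were seen. MEF2A, a calcium-responsive factor with sites in the NR4A1 promoter, had 43.3 CPM with the mimic, against 132 CPM with the control in RL-95-2 (log2 ratio -1.61), and RPS6KA5, a kinase of CREB and histone H3, had -1.10. RPS6KA4, its close relative, had 1.21, at 115 CPM with the mimic and 49.6 CPM with the control.

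Of 23 other early genes, 12 were at least 2-fold lower and 1 higher in RL-95-2 (median log2 ratio -1.16), where 6.52% and 4.71% of all features were. In HEC-1-A 19 of 22 were above 0 (median 0.27). Their extremes in RL-95-2 were ATF3 at -4.95 and SERTAD1 at 1.01. Of 7 genes known as EGR1 targets, 6 had a ratio below 0 and 1 above in RL-95-2 (median log2 ratio -0.17). At least 2-fold lower there were 0 of 7, near the share of 6.52% of all features. Tissue factor gene F3 had 11.8 CPM with the mimic, against 9.33 CPM with the control there (log2 ratio 0.34), and the adhesion gene ICAM1 had 54.3 CPM with the mimic, against 98.0 CPM with the control (log2 ratio -0.85). In HEC-1-A, PDGFA was the single target past 2-fold, with 2.39 CPM with the mimic, against 4.95 CPM with the control (log2 ratio -1.04). Among 6 genes for proteins that bind AU-rich mRNA, 2 were at least 2-fold lower and 0 higher in RL-95-2, where 6.52% and 4.71% of all features were. ZFP36, which promotes decay of such mRNAs, had 17.6 CPM with the mimic, against 75.7 CPM with the control in RL-95-2 (log2 ratio -2.10), ZFP36L1 had -1.33 and HNRNPD 0.50. In HEC-1-A these 3 had 0.35, 0.05 and 0.03. No gene of these lists passed the edgeR test over both lines.

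**Figure D4:**
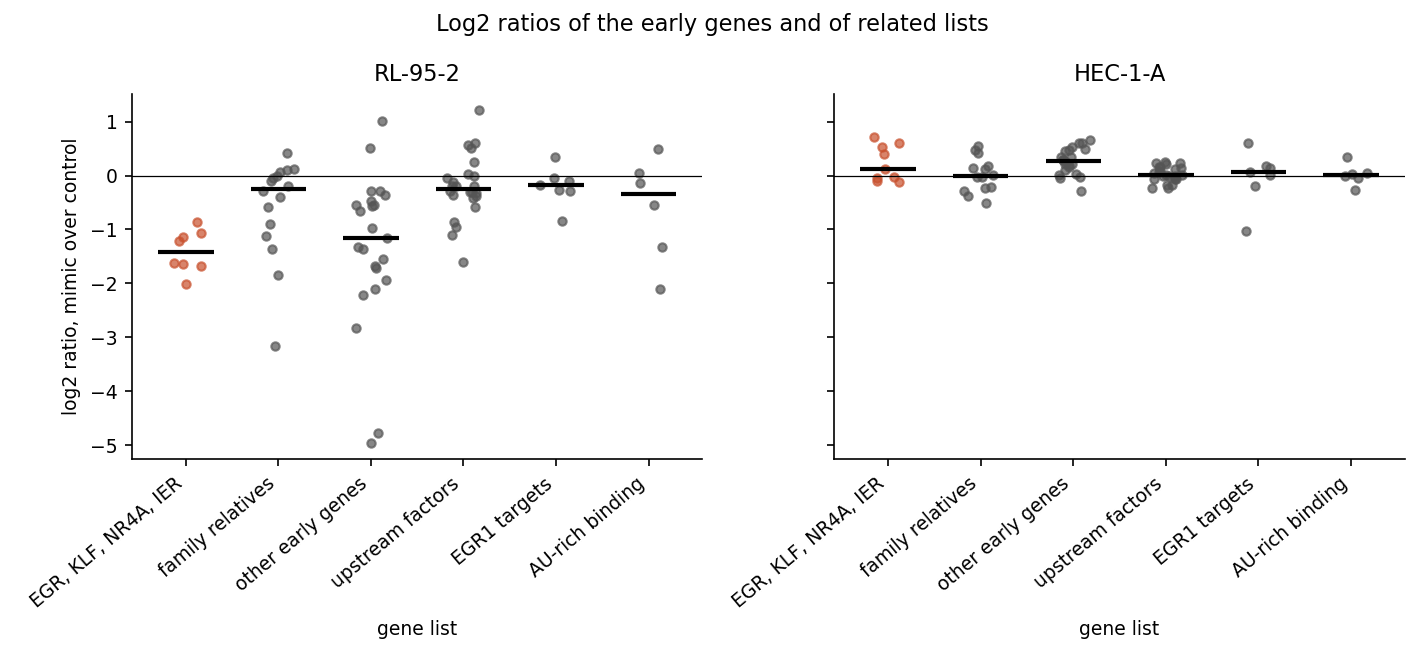
Log2 ratio of mimic over control in RL-95-2 and HEC-1-A for the early genes (red) and related lists (grey), 1 point per gene averaging 1 CPM or more, with the median as a bar. In RL-95-2 every early gene lies below 0, while the relatives and upstream factors have medians of -0.25, and in HEC-1-A the points of all lists lie between -1.04 and 0.71.

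The non-member closest to each gene was found by the Euclidean distance of centred log2 CPM over the 4 libraries, among 11434 candidates averaging 5 CPM or more. IER3 lay closest to JUND, an AP-1 subunit (distance 0.026), which had log2 ratios of -1.16 in RL-95-2 and 0.10 in HEC-1-A. IER2 lay closest to KDSR, an enzyme of sphingolipid synthesis (0.062), KLF4 to SPIRE1, an actin nucleator (0.137), and KLF6 to ERRFI1, a feedback inhibitor of EGF receptors (0.155). For NR4A1 the closest was SMAD7, an inhibitor of TGF-beta signalling (0.281), and for EGR1 PPP1R9A (0.361). Distances over 4 libraries describe these samples only.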

How the data were processed

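RNA of 2 lines was sequenced after selection on oligo(dT) beads, per the labels' protocols. The authors deposited raw counts per gene symbol and FPKM per gene symbol for these 4 libraries. CASAVA and HISAT2, with build GRCh38 (hg38), are named per the submitters' processing notes. Which counter, annotation and strand option made the counts is not stated in the labels. Columns were matched to samples by line and transfection.

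Tests used quasi-likelihood fits of edgeR 4.0.16 in R 4.3.3, on TMM-scaled counts that passed filterByExpr (grouped by transfection), with line and transfection as terms. P-values were adjusted by Benjamini-Hochberg over all features tested, with calls at 0.05. The line named in the labels pairs the libraries. An SE is the log2 fold change over the root of F. Within a line, no test was run: log2 ratios used CPM after TMM with 2 as prior count, exact 95% (Clopper-Pearson) intervals came from both counts, and features past 2-fold were counted where they averaged 1 CPM or more. The procedure was tested on simulated counts, with the same change in both lines or in both transfections. Every simulated feature had the median spread of the data. The test of mimic against control over both lines recovered 1.5% of 2-fold, 85.1% of 4-fold and 100% of 8-fold changes. The line test recovered 22.4% of 2-fold and 98.5% of 4-fold changes, and it called 6 unchanged features. The members and lists were chosen with earlier results of these data known. Named genes are the 10 members, the 3 highest and 3 lowest of each list and line, and the closest gene to each member over 5 CPM. SRF, ELK1, COL1A2, DCN, PECAM1 and VWF are named outside this rule, after their values were seen. Alternatives used DESeq2 1.42.0 and limma 3.58.1. Positions and transcripts came from GENCODE release 29, with 1 transcript per gene (best APPRIS level, then CCDS, then longest).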

Additional observations from a re-analysis of the deposited data

Results flagged for a closer look

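Of the 10 early genes, 5 had a ratio of mimic over control above 0 in HEC-1-A and below 0 in RL-95-2, with both counting intervals away from 0, against 8.48% of all features (15% of those that reached a mean of 1 CPM in both lines, where 4 of 8 early genes did). The log2 ratio in RL-95-2 minus that in HEC-1-A was -2.37 for EGR2, -2.07 for KLF6, -1.74 for NR4A1, -1.66 for KLF2 and -1.27 for IER3. The EGR2 value rests on 2 counts in the RL-95-2 mimic library and 9 in its control. With 1 library per group the difference between the lines was not tested. The genes were chosen with earlier results of these data known, so the shares over all features are a description only.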

How the results depend on the processing

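No early gene passed over both lines under any alternative with a test, and RL-95-2 over HEC-1-A called 4 under each but the requirement of 1 CPM in all 4 libraries (3 called). Over all features, mimic against control over both lines called 2 with DESeq2 and 3 with limma on log2(FPKM + 0.1), and the line test called 3344 with 1 CPM in all 4 libraries, against 5594. In RL-95-2 the features past 2-fold numbered 727 on FPKM + 1, 941 at a mean of 5 CPM and 3943 at 1.5-fold, against 1476. The early genes lower there were 4 on FPKM + 1 and 4 at 5 CPM (of 5 genes left), against 7 of 8. They were 5 on FPKM + 0.1 and 6 with scaling by library total. In HEC-1-A the features numbered 26 on FPKM + 1, 29 at a mean of 5 CPM and 617 at 1.5-fold, against 144, and 2 early genes were higher at 1.5-fold. The share of HEC-1-A features past 2-fold that were higher was 78.5%, and 50% on FPKM + 1.

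The paired fold change over both lines, with the line as block, turned sign for some genes with adjusted p values near 1. With the line left out of the fit as a block, it was 0.56 for EGR2, 0.03 for KLF6 and 0.27 for NR4A1. EGR2 gave 0.09 on log2(FPKM + 1) and 0.02 on log2(FPKM + 0.1), and NR4A1 gave 0.01 with limma-voom. With each line left out, the values ran from -1.65 to 0.71 for EGR2, -1.06 to 0.60 for KLF2, -1.68 to 0.39 for KLF6, -1.22 to 0.52 for NR4A1 and -1.14 to 0.12 for IER3. Between lines, leaving out 1 transfection gave -0.36 to 1.21 for KLF4 and -1.15 to 0.46 for NR4A2, and for the called genes -4.76 to -2.86 for EGR1, -4.96 to -2.59 for EGR2, -3.36 to -1.28 for KLF6 and -3.50 to -1.75 for NR4A1. The cause was not tested. EGR2 and EGR3 had 9 counts or fewer in each RL-95-2 library, which limits their ratios there.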
